A study of Mus musculus with 6 samples.

Results

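The bone morphogenetic protein (BMP) ligands and their extracellular antagonists are described here across the cell types of the mouse cardiac and pharyngeal region. The 10 genes were taken by symbol from the 32285 genes of the deposited matrix: the ligands Bmp2, Bmp4, Bmp5, Bmp6, Bmp7 and Bmp10, and the antagonists Nog, Chrd, Grem1 and Fst. All 10 were found, each in a single row. The samples came from wild-type C57BL/6 embryos at E10.5, dissected as the cardiogenic region with neighbouring mesoderm, ectoderm and endoderm. The study text gives at least 3 biological replicate embryos. The dams had been pretreated with vehicle and were normal glycemic (3 samples), or with streptozotocin, a toxin of pancreatic beta cells, and were hyperglycemic (3 samples); all were mated to normal glycemic males. Single cells were profiled with droplet 3′ RNA sequencing, in which each captured transcript carries a unique molecular identifier (UMI). The 6 libraries are pooled in 1 matrix, and barcode endings separate them without naming the sample, so diabetic and control pregnancies were not compared and no test between libraries was made.

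BMP ligands are secreted dimers of the TGF-beta superfamily. They bind paired type I and type II receptor kinases, which phosphorylate Smad1, Smad5 and Smad9, and the Smads enter the nucleus with Smad4 and induce genes such as the Id family, Msx genes and the inhibitory Smad6 and Smad7. Noggin (Nog), chordin (Chrd) and gremlin 1 (Grem1) bind the ligands outside the cell and keep them from their receptors, while follistatin (Fst) binds mainly activins and also some BMPs. In the embryonic heart, BMP2 from the atrioventricular canal myocardium acts in valve formation, BMP4 acts in the outflow tract, BMP10 is a cardiac ligand of trabecular and atrial myocardium, and somite-derived tissues are known sites of antagonist expression.

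Of 53362 barcodes, 35962 had at least 2500 genes and at most 10% mitochondrial UMIs, and these are the cells used. The libraries held 7533 to 10000 barcodes, 200462921 to 248426458 UMIs and, after the filter, 4903 to 7136 cells with a median depth of 30533 to 35634 UMIs per cell. Marker lists that hold none of the 10 genes placed 27883 cells in 17 classes of at least 50 cells. Each class is named for the type its markers resemble, and every name below is to be read with "-like". Of the 35962 cells, 2890 carried a barcode sequence that another library also held, 75 to 897 per library, and for 283 of them the other library's barcode was also kept. Libraries 4, 5 and 6 shared 1003 to 1597 barcodes with each other, and every other pair 66 to 374. Without these cells the same genes were called at 2-fold, over classes and over cardiomyocyte gates. In library 1 Xist stood at 383 CPM, and in the other 5 it was under 1. A difference of library 1 from the others cannot be told apart from one that goes with Xist. Levels are given as counts per 1000000 UMIs of the class (CPM), pooled over libraries, with exact 95% Poisson intervals that cover counting error only. In brackets, a range over libraries is marked as such; an unmarked range is the Poisson interval after a level and the exact 95% binomial interval after a ratio or a share.

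The position of each gene is given on GRCm38 with the GENCODE M21 annotation. Bmp2 (ENSMUSG00000027358) lies at chr2:133552159-133562885 on the forward strand and Bmp4 (ENSMUSG00000021835) at chr14:46383520-46390669 on the reverse strand. Bmp5 (ENSMUSG00000032179) lies at chr9:75775364-75900310, Bmp6 (ENSMUSG00000039004) at chr13:38345107-38500302 and Bmp10 (ENSMUSG00000030046) at chr6:87428994-87437677, all forward. Bmp7 (ENSMUSG00000008999) lies at chr2:172868012-172940321, Nog (ENSMUSG00000048616) at chr11:89300638-89302332 and Fst (ENSMUSG00000021765) at chr13:114452290-114458951, all reverse. Chrd (ENSMUSG00000006958) lies at chr16:20733127-20742384, forward, and Grem1 (ENSMUSG00000074934) at chr2:113746164-113758646, reverse.

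The 250 bases upstream of the RefSeq start are shown for 4 of the 10 genes whose levels were highest in different places: Bmp10, highest in cardiomyocytes, Bmp4 and Bmp5, spread over many classes, and Grem1, an antagonist highest in pharyngeal mesoderm. The sequences are RefSeq, GRCm38.p6, written 5′ to 3′ on the strand of the gene. Capitals mark matches on either strand to 5 short spellings of motifs. The GATA factors were searched with AGATAA and, as another spelling, with TGATAA. The NKX2 factors were searched with TNAAGTG. The T-box factors were searched with AGGTGT and the Smad proteins with their palindrome GGCGCC. The windows are chr6:87428744-87428993 for Bmp10, chr14:46390670-46390919 for Bmp4, chr9:75775115-75775364 for Bmp5 and chr2:113758649-113758898 for Grem1.
Bmp10: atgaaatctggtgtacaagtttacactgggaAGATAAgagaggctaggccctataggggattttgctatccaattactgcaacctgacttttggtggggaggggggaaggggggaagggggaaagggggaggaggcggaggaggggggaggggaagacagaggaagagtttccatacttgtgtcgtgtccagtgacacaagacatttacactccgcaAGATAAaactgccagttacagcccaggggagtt
Bmp4: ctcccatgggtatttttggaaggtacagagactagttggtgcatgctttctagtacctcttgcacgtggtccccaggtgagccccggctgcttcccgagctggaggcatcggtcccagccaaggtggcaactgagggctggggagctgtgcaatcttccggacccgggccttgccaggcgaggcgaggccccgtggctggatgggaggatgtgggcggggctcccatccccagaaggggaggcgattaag
Bmp5: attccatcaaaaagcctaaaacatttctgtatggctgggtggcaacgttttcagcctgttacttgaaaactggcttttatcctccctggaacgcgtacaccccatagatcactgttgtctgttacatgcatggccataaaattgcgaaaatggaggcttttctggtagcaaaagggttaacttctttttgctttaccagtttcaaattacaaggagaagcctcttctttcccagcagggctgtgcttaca
Grem1: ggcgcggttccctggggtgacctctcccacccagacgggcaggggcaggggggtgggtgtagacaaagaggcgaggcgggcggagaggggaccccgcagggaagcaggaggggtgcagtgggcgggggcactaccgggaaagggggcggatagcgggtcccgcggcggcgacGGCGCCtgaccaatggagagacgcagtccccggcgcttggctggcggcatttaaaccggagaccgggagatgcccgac
The Bmp10 window held 2 AGATAA matches on the strand of the gene, at 219 to 214 and at 33 to 28 bases upstream of the start. The Grem1 window held 1 GGCGCC, a palindrome, at 78 to 73 bases upstream. The Bmp4 and Bmp5 windows held none of the 5 spellings. Among 32851 promoters of the same length, 9.99% held AGATAA, 7.94% TGATAA, 10.1% TNAAGTG, 11.8% AGGTGT and 9.59% GGCGCC. GC content was 52% for Bmp10, 63.2% for Bmp4, 42.8% for Bmp5 and 72% for Grem1, against a median of 52.4% over all promoters of the table. Matches are descriptions of these letters and no binding was measured. Bmp2, Bmp7, Nog and Fst had no entry in the table. The Bmp6 window, which overlaps an annotated exon, held 1 T-box match at 52 to 47 bases upstream, on the other strand. The Chrd window held 1 match to the NKX2 spelling at 189 to 183 bases and 1 to the Smad spelling at 203 to 198 bases. These 2 are not printed, Chrd for its low level and Bmp6 because its window lies inside the annotated gene. The printed Bmp5 window overlaps an annotated exon by its last base.

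The ligands differed in breadth, with Bmp4 at 10 CPM or more in 13 of the 17 classes, Bmp5 and Bmp7 in 9 each, Bmp6 in 6, Bmp2 in 4 and Bmp10 in 0. The highest class of each antagonist lay outside the myocardium. Of the 10 genes, 8 reached 10 CPM in at least 1 class; Bmp10 and Chrd did not. Over all genes with a UMI, 43.4% of 27744 did so. A highest class at 10 CPM or more and at least 2-fold over the next class was found for 2 of the 10, Nog in epicardium and mesothelium and Fst in paraxial mesoderm. The same rule called 6.88% of all 27744 genes, or 15.9% of the 12040 that reached 10 CPM. The median ratio of the highest to the next class was 1.49 for the 10 genes and 1.3 for all genes. Cardiomyocytes held the highest level of 3 of the 10 genes, Bmp2, Bmp7 and Bmp10, the last under 10 CPM, and of 7.72% of all genes that reached 10 CPM.

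**Figure D1:**
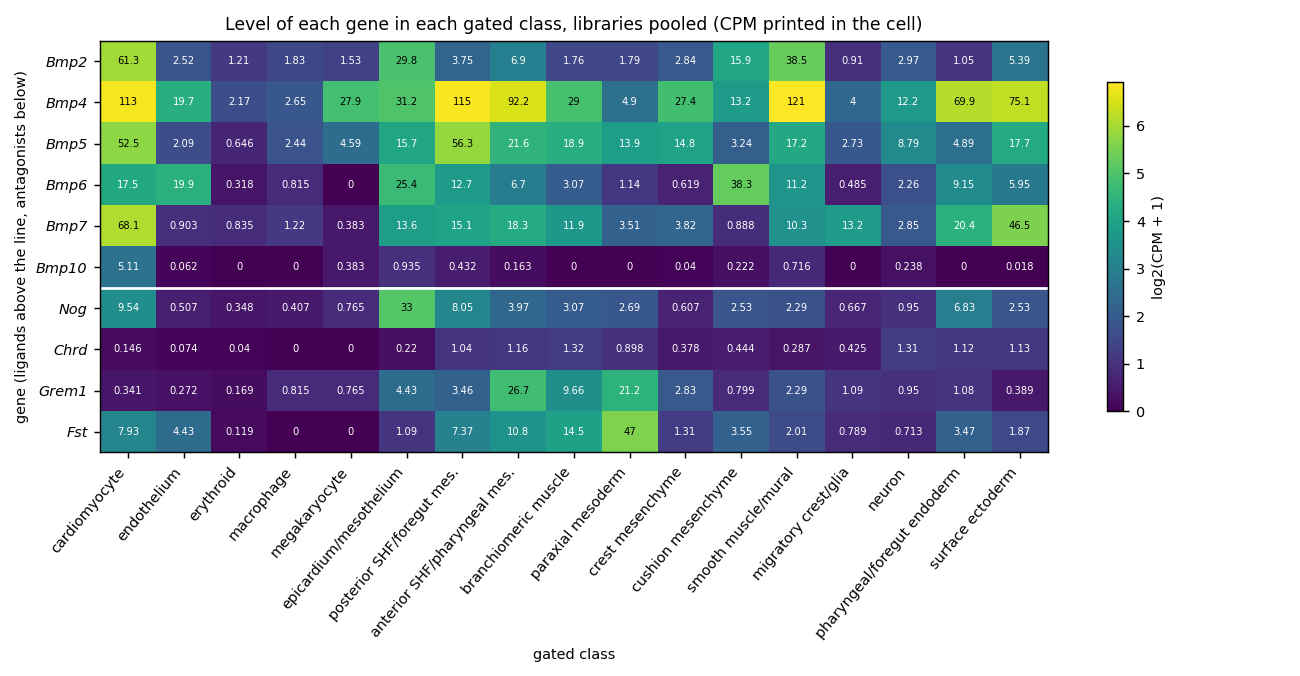
Level of each of the 10 genes in the 17 gated classes, libraries pooled; colour is log2(CPM + 1) and the printed value is CPM, with ligands above the white line and antagonists below it. Bmp4 is at 10 CPM or more in 13 of the 17 classes and Bmp10 in 0, while Nog, Grem1 and Fst each show their brightest cell in a different mesodermal class.

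Bmp2, which in the heart is needed for the atrioventricular canal and its cushions, was highest in cardiomyocytes, at 61.3 CPM (95% interval 60.0 to 62.6; 3021 cells). The libraries ranged from 46.4 to 82.8 CPM with a median of 61.5. Smooth muscle and mural cells followed at 38.5 CPM (libraries 30.1 to 57.3), epicardium and mesothelium at 29.8 CPM (libraries 26.0 to 32.5) and cushion mesenchyme at 15.9 CPM (libraries 11.8 to 27.2). The ratio of cardiomyocytes to smooth muscle was 1.59 (1.41 to 1.8) and exceeded 1 in 6 of 6 libraries. Every other class lay under 10 CPM. The 9 cardiomyocyte markers all had UMIs in the epicardial and the smooth muscle classes, where their summed level was 5.77% and 3.16% of that in cardiomyocytes; their part in the Bmp2 level there was not tested.

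Bmp4, the ligand of ventral and lateral mesoderm and of many epithelia, had no single highest class. Smooth muscle and mural cells had 121 CPM (libraries 71.5 to 147, median 134), posterior second heart field and foregut mesenchyme 115 CPM (libraries 64.9 to 214, median 107) and cardiomyocytes 113 CPM (libraries 96.1 to 129, median 115). The first of these exceeded the next in 3 of 6 libraries, with a ratio of 1.05 (0.974 to 1.13), so the 3 classes were not ordered. The smooth muscle class is a small one of 211 cells led by Stmn4, Actg2, Tagln, Psd, Rgs5 and Hand1. Anterior second heart field and pharyngeal mesoderm had 92.2 CPM, surface ectoderm 75.1 CPM and endoderm 69.9 CPM. Endoderm exceeded the next class, epicardium at 31.2 CPM, in 6 of 6 libraries, at a ratio of 2.24 (2.13 to 2.36). Paraxial mesoderm at 4.90 CPM and migratory crest and glia at 4.0 CPM were near the erythroid level of 2.17 CPM.

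Bmp5 and Bmp7 belong to the same ligand subgroup as Bmp6. Bmp5 had 56.3 CPM in posterior second heart field and foregut mesenchyme and 52.5 CPM in cardiomyocytes. The mesenchyme varied between libraries, from 22.6 to 70.0 CPM with a median of 50.9, and the cardiomyocytes less, from 48.9 to 59.7. The former was higher in 2 of 6 libraries, so the pooled ratio of 1.07 (1.03 to 1.12) gives no order. Library numbers of posterior mesenchyme cells ran from 49 to 623. Cardiomyocytes exceeded the anterior heart field, at 21.6 CPM, in 6 of 6 libraries (ratio 2.43, 2.29 to 2.57). Bmp7 was highest in cardiomyocytes at 68.1 CPM (libraries 62.1 to 73.5, median 67.8) and next in surface ectoderm at 46.5 CPM (libraries 38.8 to 53.9, median 46.1). The 2 ranges did not overlap and the ratio was 1.46 (1.40 to 1.53). Endoderm, at 20.4 CPM, ranked below the surface ectoderm for Bmp7.

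Over the 17 classes, Bmp6 was highest in the cushions, with the epicardium next. The outflow tract gate within cardiomyocytes, described below, had more, at 76.3 CPM. Endocardial cushion mesenchyme, the precursor of the valves, had 38.3 CPM (libraries 30.9 to 51.5, median 36.0). Epicardium and mesothelium had 25.4 CPM (libraries 20.5 to 28.3), endothelium 19.9 CPM (libraries 8.70 to 25.6) and cardiomyocytes 17.5 CPM (libraries 13.4 to 20.4). Endothelium exceeded cardiomyocytes in 3 of 6 libraries, so these classes were not ordered. Cushion and epicardium did not overlap between libraries, with a ratio of 1.51 (1.39 to 1.63). In smooth muscle, library 1 stood at 36.9 CPM and the other 5 at 1.42 to 11.4 CPM. Crest mesenchyme, the class with the most cells, had 0.619 CPM of Bmp6, close to the erythroid 0.318 CPM.

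Bmp10 was low, and highest in cardiomyocytes, with 5.11 CPM (4.75 to 5.5; libraries 4.34 to 6.07). Epicardium and mesothelium followed with 0.935 CPM, a ratio of 5.47 (4.26 to 7.12; 3.61 in cells thinned to 5000 UMIs), and 6 classes had no UMI. Among these were erythroid cells, with 0 of 1485; taking 3 cells as the most that a count of 0 allows, the share of cells with a UMI is up to 0.202%. In cardiomyocytes 15.6% of cells had a Bmp10 UMI (exact binomial interval 14.3 to 16.9%).

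Among the antagonists, Nog was highest in epicardium and mesothelium, at 33.0 CPM (31.7 to 34.4; 1561 cells). The libraries ranged from 26.7 to 38.8 CPM with a median of 31.1, all above the 8.27 to 10.6 CPM of cardiomyocytes, which came next at 9.54 CPM. The ratio was 3.46 (3.24 to 3.70). A Nog UMI was found in 55.6% (53.1 to 58.1%) of epicardial cells at a median depth of 45430 UMIs. In erythroid cells, used as a measure of free RNA, the share was 0.943% (0.516 to 1.58%) at 65593 UMIs. Depth differed between classes, with 23925 UMIs in surface ectoderm, so the erythroid level is only a rough measure of free RNA in other classes. Posterior heart field and foregut mesenchyme had 8.05 CPM and endoderm 6.83 CPM.

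Grem1, an antagonist of BMP2, BMP4 and BMP7, was highest in anterior heart field and pharyngeal mesoderm at 26.7 CPM (25.5 to 28.1; 2172 cells). Libraries ranged from 23.1 to 37.3 CPM with a median of 25.1. Paraxial mesoderm followed at 21.2 CPM (libraries 14.4 to 38.8, median 20), and the former was higher in 4 of 6 libraries, with a pooled ratio of 1.26 (1.11 to 1.44). The libraries of the 2 classes overlapped. Branchiomeric muscle, which shares the markers Lhx2 and Tcf21 with the anterior class, had 9.66 CPM, and every other class was under 5 CPM. The anterior class is led by Lhx2, Ntng1, Moxd1, Barhl2 and Chrdl1. Cardiomyocytes, at 0.341 CPM, and endothelium, at 0.272 CPM, were close to the erythroid 0.169 CPM.

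Fst was highest in paraxial mesoderm, at 47.0 CPM (43.2 to 51; 378 cells), and uneven between libraries. Libraries 1 and 3 had 3.21 and 5.02 CPM, library 4 had 26.2, libraries 5 and 2 had 49.4 and 53.3, and library 6 had 99.1. Branchiomeric muscle followed with 14.5 CPM (ratio 3.24, 2.28 to 4.76; only library 5 had 20 or more cells of both, at a ratio of 2.68), anterior heart field with 10.8 CPM (libraries 6.61 to 15.2) and cardiomyocytes with 7.93 CPM (libraries 4.24 to 10.4). Libraries 1 and 3 therefore fell under the range of the anterior class. The 7 paraxial markers summed to 1041 to 1220 CPM in every library, but their mixture differed, as shown by some of them, chosen after their values were seen. Uncx, a sclerotome gene, was at 0 and 3.59 CPM in libraries 1 and 3 and at 5.16 in library 2. In libraries 4, 5 and 6 it was at 27.1, 62.4 and 57.5 CPM. Pax1, another sclerotome gene, was at 0 in libraries 1 and 3. It was at 24.6, 39.7, 132 and 21.1 CPM in libraries 2, 4, 5 and 6, so it was low in library 6, where Fst was highest. Nkx3-2, also on the marker list, was at 1.72 CPM in library 2, 0.772 in library 5 and 0 in libraries 1, 3, 4 and 6. Tcf15, an early somite gene, was at 539 and 474 CPM in libraries 1 and 3 and at 248 to 429 in the others. Of the myogenic regulators, Myf5 was at 50.3 and 77.5 CPM in libraries 1 and 3 and at 10.4 to 25.3 in the others, and Myod1 at 6.42 and 7.89 CPM against 0 to 1.15; both were also chosen after their values were seen. The part of this mixture in the Fst level was not tested. With 1 more marker required the pooled level was 74.5 CPM, in cells gated again after thinning to 5000 UMIs it was 89.9 CPM, and with libraries weighted equally the ratio to branchiomeric muscle was 2.14. Libraries 1 and 3 held 23 and 31 paraxial cells, against 178 in library 5.

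Chrd, the dorsal organizer antagonist, was near the detection limit throughout, with 697 UMIs in 662 of 35962 cells. Its highest class, branchiomeric muscle at 1.32 CPM, rests on 3 UMIs, and neurons at 1.31 CPM were not ordered against it (ratio 1.01). Without library 6, the ratio was 0.526 and the level in branchiomeric muscle 0.524 CPM. No Chrd UMI was found in 2 classes. After branchiomeric muscle, the largest levels lay in neurons, anterior heart field (1.16 CPM), surface ectoderm (1.13 CPM) and endoderm (1.12 CPM), all above the erythroid 0.0398 CPM.

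**Figure D2:**
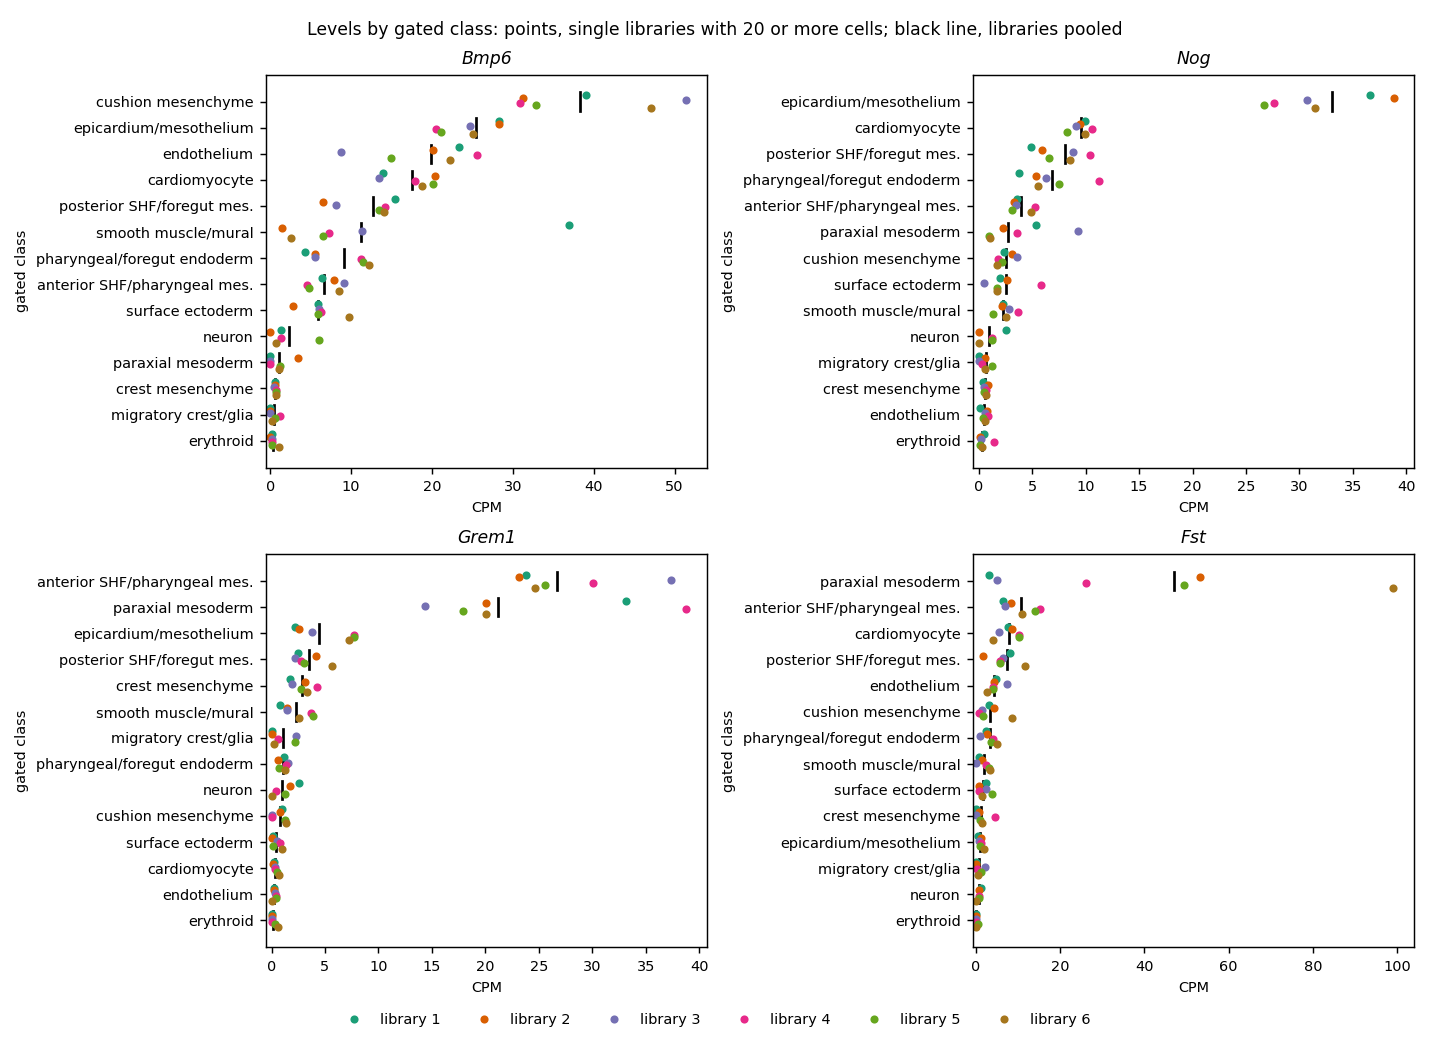
CPM (horizontal axis) of Bmp6, Nog, Grem1 and Fst by gated class, with a coloured point for each library of 20 or more cells and a black line for the pooled level. Nog in epicardium and mesothelium sits at 26.7 to 38.8 CPM, above all other classes in each library, whereas Fst in paraxial mesoderm runs from 3.21 to 99.1 CPM.

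Within the heart tube, Bmp2, Bmp4 and Bmp6 differed most between segments among the 6 ligands. Cardiomyocytes were split by markers into ventricular (1106 cells), atrial (782), atrioventricular canal (380) and outflow tract (313) gates, and 440 cells stayed without a gate. Among these 4 gates, 4 of the 10 genes had a level of 10 CPM or more and at least 2-fold over the next gate: Bmp2, Bmp4, Bmp6 and Fst. The rule called 1.86% of 23500 genes, or 4.79% of the 9110 that reached 10 CPM there. With the ungated cells counted as another gate, the call held for 3 of the 10, Bmp2, Bmp6 and Fst, and not for Bmp4; that rule called 2% of 9134 genes. Median depth was 56822.5 UMIs per ventricular, 39854.5 per atrial, 35876.5 per atrioventricular canal and 35400 per outflow cell. The 9 cardiomyocyte markers had UMIs in each gate and summed to 26666 to 28285 CPM over the ventricular libraries, 33346 to 40619 over the atrial, 38822 to 43604 over the canal and 29828 to 38316 over the outflow libraries.

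Bmp2 was highest in the atrioventricular canal gate, at 338 CPM (329 to 347), with libraries from 308 to 437 and a median of 325. This gate was drawn with Tbx2, Tbx3 and Rspo3, and Tbx2 and Tbx3 are on the list below of genes known to respond to BMP. The Bmp2 level of the canal gate and its ratios are therefore not independent of how the gate was drawn. The outflow gate had 61.5 CPM (libraries 41.7 to 80.2), the atrial gate 33.3 CPM (libraries 18.2 to 59.1) and the ventricular gate 4.81 CPM (libraries 2.39 to 7.50). No library of the canal overlapped another of the 4 gates. The ungated cells had 88.9 CPM, and the canal exceeded them 3.80-fold (3.58 to 4.03). The canal exceeded the outflow gate 5.5-fold (5.09 to 5.95) and the ventricular gate 70.3-fold (62.7 to 79.0). A Bmp2 UMI was found in 84.7% (80.7 to 88.2%) of canal cells, 10.4% of the deeper ventricular cells and 3.84% of erythroid cells.

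Bmp4 was highest in the outflow tract gate, at 431 CPM (419 to 443), with libraries from 394 to 538 and a median of 434. The canal had 128 CPM (libraries 82.6 to 222), the atrial gate 104 CPM (libraries 71.0 to 249) and the ventricular gate 18.2 CPM (libraries 6.70 to 24.5). The outflow libraries lay above those of the other 3 gates, 3.36-fold over the canal (3.19 to 3.54) and 23.7-fold over the ventricle (22.2 to 25.2). The 440 ungated cardiomyocytes had 269 CPM (libraries 214 to 332), more than any gate but the outflow tract. The outflow gate exceeded them 1.60-fold (1.54 to 1.67), in 6 of 6 libraries, which is under the 2-fold rule. Almost every outflow cell, 97.8% (95.4 to 99.1%), had a Bmp4 UMI, against 4.04% of erythroid cells.

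Bmp6 had the same highest gate, with 76.3 CPM in outflow cells (71.5 to 81.4; libraries 52.4 to 109, median 77.6). The atrial gate had 14.2 CPM (libraries 8.75 to 18.3), the canal 11 CPM (libraries 0.746 to 17.9) and the ventricular gate 6.02 CPM (libraries 3.65 to 9.15). The ratio to the atrial gate was 5.38 (4.81 to 6.01), in 6 of 6 libraries, and to the ungated cells, at 33.2 CPM, 2.30 (2.07 to 2.57). Bmp5 ran the other way, with its lowest gate in the outflow tract at 17.3 CPM (libraries 12.9 to 20.5). It had 69.9 CPM in the canal (libraries 62.9 to 80.3), 63.0 CPM in the ventricle (libraries 54.6 to 77.7) and 45.4 CPM in the atrium (libraries 42.6 to 48.7). The canal and ventricular ranges overlapped; the canal was higher in 6 of 6 libraries at a ratio of 1.11 (1.04 to 1.19), which turned to 0.816 in cells thinned to 5000 UMIs. The canal exceeded the outflow gate 4.04-fold (3.48 to 4.71).

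Bmp7 was nearly even, from 58.0 CPM in the outflow gate (libraries 45.7 to 65.1) to 74.5 CPM in the atrial gate (libraries 67.3 to 78.7). Bmp10 had 6.58 CPM in the atrial and 6.34 CPM in the ventricular gate, which were not ordered (ratio 1.04, 0.879 to 1.22). The outflow gate had 3.41 CPM (libraries 2.82 to 4.44) and the canal 0.722 CPM (11 UMIs), so that the atrial gate exceeded the canal 9.10-fold (4.99 to 18.5). Bmp10 was thus lowest in the gate where Bmp2 was highest, while both had cardiomyocytes as their highest class.

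Of the antagonists, Fst was highest in the atrial gate within the myocardium, at 27.1 CPM (25.4 to 28.9; libraries 16.5 to 39.7, median 26.3). The outflow gate had 2.24 CPM, the canal 2.04 CPM and the ventricular gate 0.580 CPM. The ratio of atrial to outflow cells was 12.1 (8.24 to 18.4), and no atrial library overlapped another of the 4 gates. The ungated cells had 6.66 CPM (libraries 2.88 to 18.1), a range that overlapped the atrial one; the atrial gate exceeded them 4.07-fold (3.33 to 5.01), in 6 of 6 libraries. A Fst UMI was found in 30.4% (27.2 to 33.8%) of atrial cells and 0.404% of erythroid cells. Nog was highest in the ventricular gate, at 12.2 CPM (libraries 11.8 to 13.1), and lowest in the outflow gate, at 4.90 CPM (libraries 2.46 to 9.79); the canal, at 10.8 CPM, was not separated from the ventricle (ratio 1.13, 0.957 to 1.35). Grem1 and Chrd were under 1 CPM in all 4 gates.

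**Figure D3:**
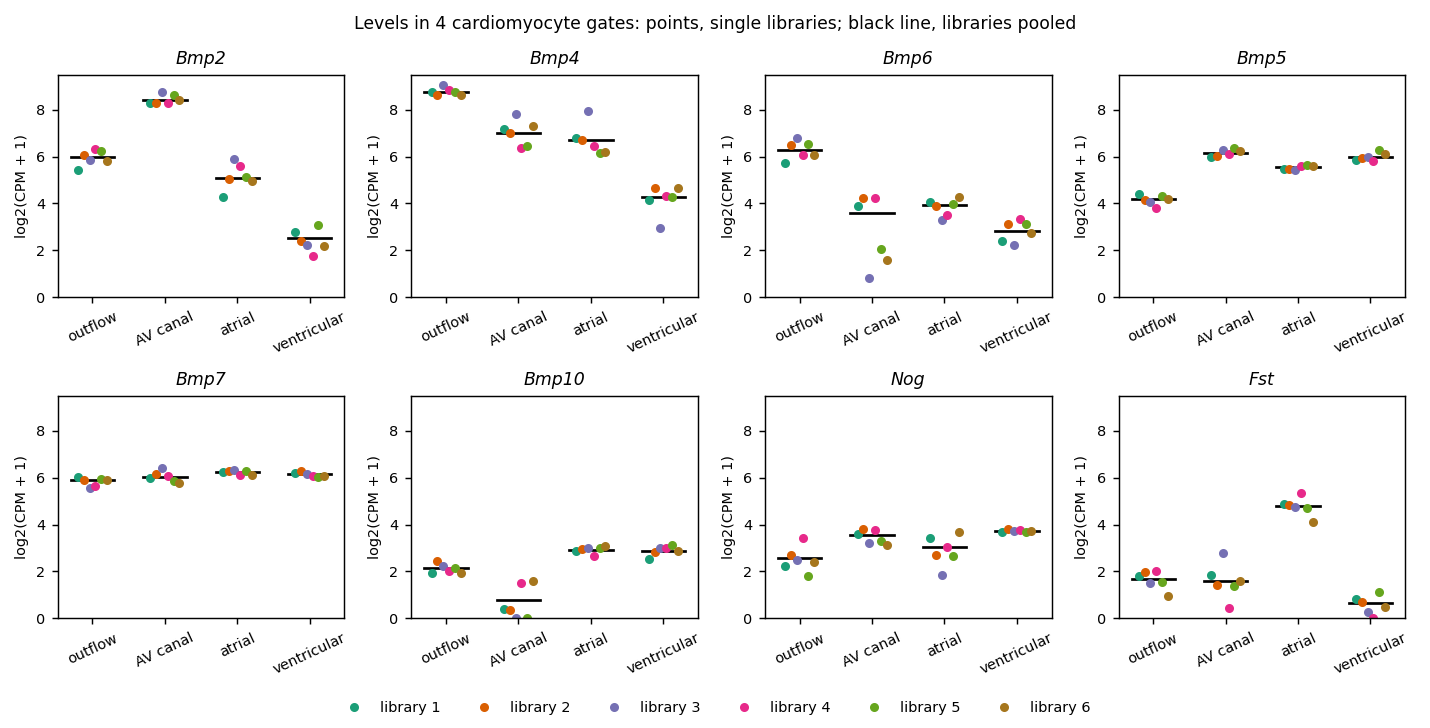
Level of 8 of the genes, log2(CPM + 1), in the outflow, atrioventricular (AV) canal, atrial and ventricular gates, with a point for each library and a black line for the pooled level. Bmp2 is highest in the canal at 338 CPM, Bmp4 and Bmp6 in the outflow tract at 431 and 76.3 CPM, and Fst in the atrium at 27.1 CPM, while Bmp7 is nearly level. The canal gate was drawn in part with Tbx2 and Tbx3, genes known to respond to BMP.

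Co-detection was described in cells thinned to 5000 UMIs each, which leaves out 1 gated cell. In the outflow gate 51.1% of cells had UMIs of 2 or more of the ligands, in the canal 45.0%, in the atrium 25.4% and in the ventricle 13.2%. Over all cardiomyocytes, Bmp6 was found in 14.8% of cells with Bmp4 and 4.35% of cells without it, and Bmp5 in 9.85% and 23.7%. These shares pool gates whose levels differ. Within the atrial gate and the ungated cells both went the same way, with Bmp6 in 11.1% of atrial cells with Bmp4 and 5.48% without, and Bmp5 in 8.51% and 20.5%. In the canal Bmp5 was found in 12.0% and 29.4%. Others differed: in the outflow gate Bmp6 was found in 24.2% of cells with Bmp4 and 26.0% of cells without, and in the ventricle Bmp5 in 29.9% and 25.4%. Within the canal gate, Bmp4 was found in 20% of cells with Bmp2 and in 42.1% of cells without, the reverse of the atrial gate, with 45.0% and 28.3%. These shares pool libraries, and cells of a library are not replicates.

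Within the endothelial and the crest gates 0 of the 10 genes were called at 10 CPM and 2-fold, where the rule called 7.82% of 8737 genes at 10 CPM in the endothelial gates and 1.99% of 8750 in the crest gates. Of the 10, only Bmp4 and Bmp6 reached 10 CPM in the former and Bmp4 and Bmp5 in the latter. In endothelium, Fst had 6.13 CPM in the endocardial gate (1183 cells; libraries 3.40 to 9.5) and a single UMI in the vascular gate (409 cells), a ratio of 113 with a wide interval of 20.2 to 4485. The ungated endothelial cells had 3.89 CPM, which the endocardial gate exceeded 1.58-fold (1.15 to 2.21), in 5 of 6 libraries. Bmp4 was higher in the vascular gate, at 23.9 CPM against 13.1 CPM, in 6 of 6 libraries (1.82-fold, 1.61 to 2.06), but the 261 ungated endothelial cells had more, 42.5 CPM, 1.78-fold over the vascular gate (1.56 to 2.03) in 6 of 6 libraries. Bmp5 was also higher in the vascular gate, at 4.66 CPM against 1.10 CPM (4.25-fold, 3.00 to 6.06). Bmp6, at 22.1 and 18.4 CPM, was higher in the vascular gate in 2 of 6 libraries.

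In crest mesenchyme, Bmp4 was highest in the third and posterior arch gate, at 42.8 CPM (libraries 39.5 to 48.6). It had 23.2 CPM in the distal mandibular gate (libraries 16.7 to 38.4), 13.9 CPM in the second arch gate (libraries 8.85 to 17.5) and 6.12 CPM in the intermediate mandibular gate. The posterior arch libraries all lay above those of the other gates, 1.84-fold over the distal gate (1.71 to 1.99). Grem1 had its highest crest level in the same gate, at 4.76 CPM (libraries 3.54 to 6.06) against 1.56 CPM in the distal gate, in 6 of 6 libraries (3.06-fold, 2.29 to 4.17). The 213 ungated crest cells had 4.52 CPM of Grem1 and were not ordered against the posterior arch gate, which was higher in 2 of 5 libraries (1.05-fold, 0.718 to 1.61). Bmp5 was level between the posterior arch and distal gates, at 18.9 and 18.4 CPM.

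The balance between the groups was given by the ligand share, the UMIs of the 6 ligands as a percent of the UMIs of all 10 genes. It is compared between classes only, since the number says nothing of protein or of affinity. The share was 96.7% in smooth muscle, 96.2% in surface ectoderm, 95.8% in the 56 megakaryocytes, which rest on 91 ligand and 4 antagonist UMIs, and 94.7% in cardiomyocytes (libraries 93.9 to 95.5%). Anterior heart field, with its Grem1, had 77.4% (libraries 71.7 to 83.0%) and epicardium, with its Nog, 75.1% (libraries 73.9 to 77.7%). Branchiomeric muscle had 69.3% (62.7 to 75.5%; 82 cells). Among these 10 genes, paraxial mesoderm was the 1 class with more antagonist than ligand UMIs, at 26.0%, with libraries from 7.14 to 34.7%. No other class overlapped it. Fst, which binds mainly activins, made up 65.5% of the antagonist UMIs of paraxial mesoderm. The share leaves out the further antagonists given below. Of these, Sostdc1 had 240 CPM in surface ectoderm, where the 6 ligands had 151 CPM. Bmper had 153 CPM in cushion mesenchyme, where the 6 ligands had 71.7 CPM. Fstl1 had 408 CPM in smooth muscle, where the 6 ligands had 199 CPM, and 150 CPM in cardiomyocytes, where they had 318 CPM. Chrdl1 had 36.7 CPM in anterior heart field, where the 6 ligands had 146 CPM. The order of classes by share therefore holds for these 10 genes only. Within cardiomyocytes the share was 98.7% in the outflow gate, 97.9% in the canal, 92.8% in the ventricle and 88.8% in the atrium.

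**Figure D4:**
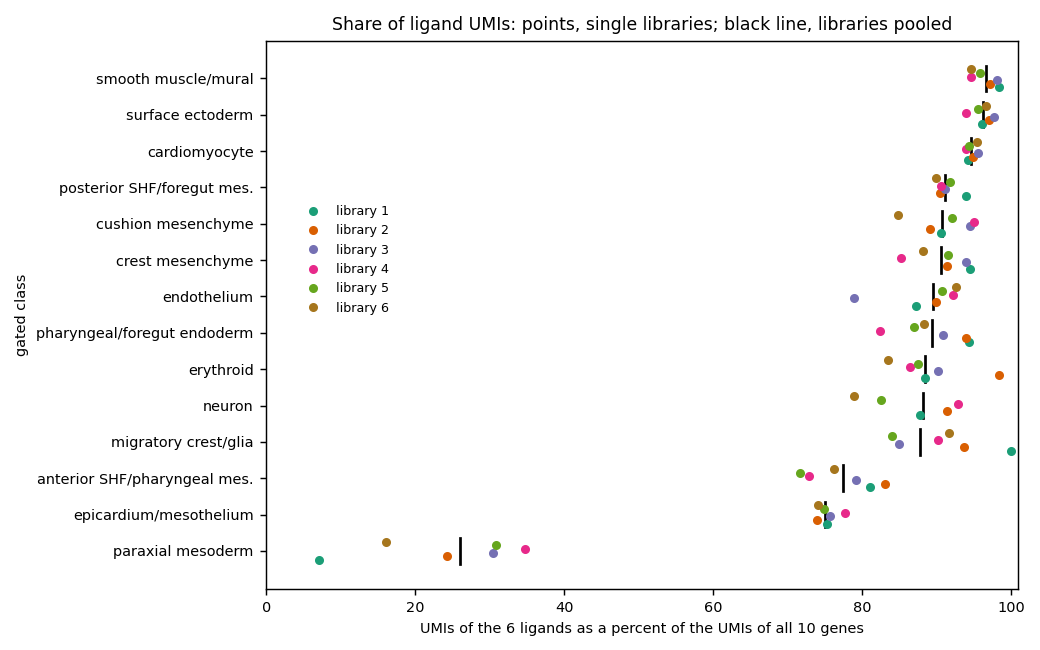
UMIs of the 6 ligands as a percent of the UMIs of all 10 genes, by gated class with at least 2 libraries of 20 or more cells (branchiomeric muscle is not among them), with a point for each library and a black line for the pooled share. Surface ectoderm and cardiomyocytes lie at 96.2 and 94.7%, anterior heart field and epicardium at 77.4 and 75.1%, and paraxial mesoderm at 26.0%, below every other class shown.

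The other genes of the pathway were taken from fixed lists. Over all 27744 genes with a UMI, 43.4% reached 10 CPM and 6.88% were called, or 15.9% of those at 10 CPM. Of 9 other BMP-family ligands, 1 reached 10 CPM, Gdf11, with 24.0 CPM in neurons and 23.8 CPM in surface ectoderm; Gdf6 had 8.15 CPM in anterior heart field and Bmp8a 7.65 CPM in megakaryocytes. A list of 4 genes held the activin and inhibin subunits Inhba, Inhbb and Inha, with the activin subunits bound by Fst, and also myostatin (Mstn). Of the 4, Inhba reached 18.3 CPM in cushion mesenchyme, 2.18-fold over the next class. Inha had 9.17 CPM in cardiomyocytes and Mstn 3.70 CPM in migratory crest and glia. In paraxial mesoderm, where Fst was highest, Inhba had 1.55 CPM, Mstn 0.816 CPM, Inha 0.490 CPM and Inhbb no UMI.

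Of 11 further antagonists, 7 reached 10 CPM, against 43.4% of all genes, and 3 were called at 2-fold, against 6.88%. The 3 were Sostdc1, Bmper and Sost, the last named for its call, with 19.9 CPM in endothelium, 5.82-fold over the next class. Fstl1, a follistatin-like secreted protein, had 408 CPM in smooth muscle, 1.22-fold over the next class, and was not called. Sostdc1 (ectodin) had 240 CPM in surface ectoderm (libraries 206 to 263), 15.0-fold over the next class. Bmper had 153 CPM in cushion mesenchyme (libraries 141 to 169), 3.94-fold over the next. The proteases that cleave the ligand precursors or chordin had 5 of 6 genes at 10 CPM, and 2 called, Pcsk5 and Furin. The shares over all genes were again 43.4% and 6.88%. Pcsk5 had 380 CPM in epicardium and mesothelium, the class with the highest Nog, and Furin 76.7 CPM in cushion mesenchyme, the class with the highest Bmp6; Tll1, which cleaves chordin, had 70.6 CPM in endothelium.

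All 7 receptors reached 10 CPM, and 1 of the 7 was called, near the 15.9% called among all genes at 10 CPM. It was Acvrl1 in endothelium at 27.7 CPM, named here for its call. Bmpr1b had 168 CPM in crest mesenchyme, Bmpr1a 149 CPM in smooth muscle and Bmpr2 139 CPM in cushion mesenchyme. Their median ratio of highest to next class was 1.12, against 1.49 for the 10 ligands and antagonists. Of 5 co-receptors 4 reached 10 CPM and none was called, with Eng at 201 CPM in endothelium, Neo1 at 171 CPM in posterior heart field mesenchyme and Rgmb at 60.2 CPM in neurons. All 6 Smads reached 10 CPM, and Smad6 was called, at 274 CPM in cushion mesenchyme; Smad7 had 173 CPM there and Smad4 113 CPM in endoderm.

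Of 12 genes known to respond to BMP signals, all reached 10 CPM and 1 was called, again Smad6, against 15.9% of all genes at 10 CPM. Id3, Id2 and Id1 were highest in cushion mesenchyme, at 1260, 556 and 527 CPM. In the cardiomyocyte gates 8 of the 12 were highest in the canal, 3 in the outflow gate, 1 in the atrium and 0 in the ventricle. The 8 include Tbx2 and Tbx3, markers of the canal gate itself, so the gating fixed their place. Without these markers, 6 of 10 were highest in the canal, 3 in the outflow gate, 1 in the atrium and 0 in the ventricle. As the gate was drawn with genes of this list, the other counts are not independent of it. With Tbx2 and Tbx3 kept but without Msx1, which stayed under 10 CPM in these gates, the counts are 8, 2, 1 and 0 of 11. Of the 9110 genes at 10 CPM in these gates, 29.3% were highest in the canal, 35.9% in the outflow gate, 9.22% in the atrium and 25.6% in the ventricle. At 2-fold over the next gate 5 of these 11 were called, where the rule called 4.79% of the 9110 genes. The 5 were Tbx2 and Tbx3, whose call the gate markers fixed, with Msx2 and Id4 in the canal and Hey1 in the atrium. Hey1 had 42.5 CPM in the atrium and 4.86 CPM in the canal. The count of 5 is thus not one to set against that share. These 5 and, below, Bambi and the last 3 genes of the next paragraph were chosen after their values were seen.

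Id1 had 416 CPM in the outflow gate (libraries 380 to 440), 223 CPM in the canal, 89.4 CPM in the atrium and 61.1 CPM in the ventricle. Id3 kept the same order, with 393, 299, 139 and 63.4 CPM. Id2 was highest in the canal at 493 CPM, followed by 284 CPM in the atrium, 247 CPM in the outflow gate and 176 CPM in the ventricle. Smad6 had 100 CPM in the canal, 97.6 CPM in the outflow gate, 29.5 CPM in the atrium and 21.4 CPM in the ventricle. Msx2, at 78.8 CPM in the canal, had 34.1 CPM in the outflow gate, 10.6 CPM in the ventricle and 5.82 CPM in the atrium. Bambi, a decoy receptor, had 409 CPM in the canal and 227 CPM in the outflow gate, against 161 and 158 CPM in ventricle and atrium. Other pathway genes called among these gates were Inha in the outflow gate (33.2 CPM), Pcsk6 in the ventricle (17.9 CPM) and Bmpr1b in the ventricle (30.1 CPM).

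**Figure D5:**
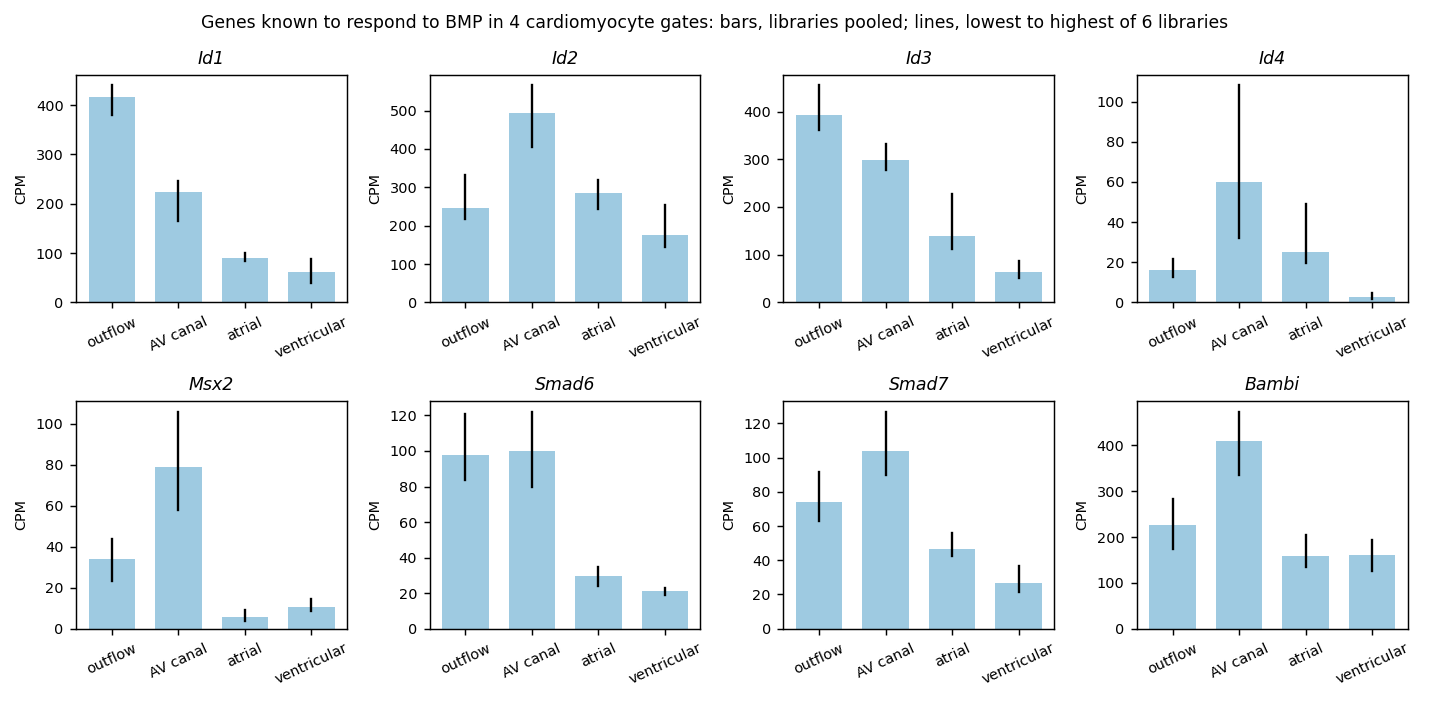
CPM of 8 genes known to respond to BMP in the 4 cardiomyocyte gates; bars are pooled levels from 0 and black lines run from the lowest to the highest of 6 libraries. Id1 is highest in the outflow tract at 416 CPM and Msx2 in the atrioventricular canal at 78.8 CPM, and the ventricular bar is the lowest for Id1, Id2, Id3, Id4, Smad6 and Smad7.

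The genes with the most similar pattern over the 17 classes were found among 11873 candidates by Pearson's r of log2(CPM + 1). The classes share libraries and depth, so r is a description. For Bmp2 they were Ankrd1 (r 0.94), 4833412C05Rik and Ctnna3, for Bmp10 Synpo2l (0.98), C130080G10Rik and Mybpc3, and for Bmp7 Shb (0.92), Plekha7 and Eprn. For Bmp4 they were Pcdh7 (0.85), Jag1 and Schip1, for Bmp5 Bves (0.92), Efnb3 and Ryr3, and for Bmp6 Gata5 (0.91), Igf2r and Zfyve21. Nog was closest to Crb2 (0.90), Thsd4 and Rfx2, Grem1 to Gxylt2 (0.85), Six2 and Fgf5, Fst to Pdzrn4 (0.91), Zcchc12 and Lrrk2, and the sparse Chrd to Trim2 (0.94), Atxn7l2 and Arg1. Among the 10 genes themselves, Bmp2 and Bmp10 (0.79), Bmp4 and Bmp5 (0.75) and Bmp5 and Bmp7 (0.71) were most alike, and Bmp10 and Chrd least (-0.28).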

How the data were processed

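The deposited file is 1 matrix of raw counts of UMIs per gene and barcode, and the file headers name Cell Ranger 5.0.0; the submitters' processing notes also name CASAVA 1.8, Seurat 4 and mm10. Sample titles and the kit point to RNA, although the descriptions mention chromatin. Cells with at least 2500 genes and at most 10% mitochondrial UMIs were kept (17029 and 371 barcodes removed). A cell joined a class with at least 3 positive markers and a margin of 0.1 in marker share over every other class; 6239 cells lay within the margin and 1784 under the minimum. A marker was positive at a level of 0.1 of its 99.5th percentile or 0.2 per 10000 UMIs, whichever was higher. Gates within cardiomyocytes, endothelium and endoderm needed 2 positive markers and the same margin. Crest gates had no margin and used markers that had to be negative. The intermediate mandibular gate took Dlx5 and Dlx6 without Hand2 and Hox genes, and the distal gate Hand2 alone without Hox genes. The second arch gate took Hoxa2 and Hoxb2 without Hoxa3, Hoxb3 and Hoxd3. These gates thus rest in part on genes not detected at the positive level, which depends on depth. These thresholds were set after the files were seen, without reference to the 10 genes. No doublet caller was used except as an alternative.

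UMIs were summed per class over libraries and divided by the class total; libraries with 20 or more cells were also given singly. Shares have exact Clopper-Pearson intervals and ratios exact binomial ones. Median depth was 30533 to 35634 UMIs per cell over libraries and 23925 to 67410 over classes. The width of the intervals depends on the UMIs summed in a class and leaves out the spread between libraries. Named are the 10 genes, up to 3 genes per pathway list with the highest level in any class, and the 3 genes most alike to each of the 10, these last without gate markers and genes under 10 CPM. Other genes are named where a result turned on them, after their values were seen. The members, lists and markers were chosen with earlier results of these data known. Motifs were searched in RefSeq promoters, of which 6 of 10 genes had one. The calling rule was run on simulated counts drawn from 1 pooled mean for all classes, with 200 genes raised 4-fold in 1 class. It called all 200 and 0 of 10433 unchanged genes. These counts had no variation between cells or libraries, so they give no error rate for the real data. Python 3.11.15, numpy 2.4.6, scipy 1.17.1, pandas 2.3.3, scikit-learn 1.9.0 and matplotlib 3.10.9 were used. Alternatives covered the cell filter, gates, depth, doublets, shared barcodes, library weights, single libraries and thresholds. Streptozotocin and vehicle were not compared, since nothing pairs a library with a sample.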

Additional observations from a re-analysis of the deposited data

How the results depend on the processing

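The count of 8 genes at 10 CPM or more was 8 under each of the 12 alternatives of filter, gate, depth, doublets, shared barcodes, weights and single libraries. The 2 genes with a highest class at least 2-fold over the next, Nog and Fst, became 4 at 1.5-fold, 3 with a floor of 5 CPM and 3 after thinning to 5000 UMIs, which added Bmp2. The same rule within cardiomyocyte gates, whose alternatives were added after seeing the data, gave 4 in all 12, and 3 with the ungated cardiomyocytes counted as another gate, where Bmp4 was no longer called. Bmp4 in smooth muscle over posterior second heart field mesenchyme turned to 0.957 with the looser filter, 0.887 with 1 more marker, 0.814 after thinning and 0.972 with equal weights, and ranged from 0.928 to 1.21 with each library left out. Bmp5 in posterior mesenchyme over cardiomyocytes turned to 0.934 with equal weights. Chrd in branchiomeric muscle over neurons, at a few UMIs, turned to 0.973 with the looser filter, 0.573 without doublets, 0.945 without shared barcodes and 0 with equal weights, and ranged from 0.526 to 1.39 with each library left out. After thinning, 3 ratios near 1 between cardiomyocyte gates turned: Bmp5 in canal over ventricle to 0.816, Bmp7 in atrium over ventricle to 0.936 and Nog in ventricle over canal to 0.955. The cause was not tested. The megakaryocyte, macrophage or branchiomeric class fell below the cell minimum in several alternatives. No paired analysis was possible because no file pairs a library with a sample; the streptozotocin alternatives (size factors, replicate block, count filter, replicates left out) were not run. Chrd rests on 697 UMIs and Bmp10 on 929.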

Other observations

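In endoderm, 70 cells passed the gate for thyroid and lung, with no library at 20 cells, so the values have no check between libraries. The gate was drawn with Nkx2-1, Hhex, Pax8 and Foxe1, which include no marker of lung alone. The part of lung cells in it is not known, and its values are not to be read as those of lung. Bmp4 stood at 139 CPM there and at 59.8 CPM in the 605 pouch cells, a ratio of 2.32 (95% interval 1.99 to 2.69, counting error only). The 1528 endoderm cells in neither gate had 72.6 CPM, which the thyroid and lung gate exceeded 1.91-fold (1.65 to 2.20), under the 2-fold rule. Bmp5 had 23.7 against 3.97 CPM in the pouch gate, a ratio of 5.96 (3.91 to 8.91), and 4.72 CPM in the ungated cells. Grem1 had 20.3 CPM (30 UMIs) against 0.993 CPM (22 UMIs), a ratio of 20.4 (11.4 to 37.2). Fst had 14.9 CPM (22 UMIs) against 2.30 CPM (51 UMIs), a ratio of 6.47 (3.73 to 10.9). Chrd, low in every class, had 4.73 CPM in the thyroid and lung gate, on 7 UMIs, and 0.632 CPM in the pouch gate, on 14 UMIs. Bmp7 ran the other way, with 27.9 CPM in the pouch gate and 19.6 CPM in the thyroid and lung gate, an interval of the ratio that includes 1 (0.981 to 2.14). The gate was chosen for description after its values were seen.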
